A study of Mus musculus with 56 samples.

Results

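The Cyp2c genes encode cytochrome P450 oxidases of the liver, and 10 of the 23813 genes in the expression table are described here: Cyp2c23, Cyp2c29, Cyp2c37, Cyp2c38, Cyp2c39, Cyp2c40, Cyp2c50, Cyp2c54, Cyp2c68 and Cyp2c70. They were chosen by gene symbol, with their measured levels in these same libraries already known, so the values, differences and calls below describe the genes and are not an independent test of them. The first listed transcript of each gene was used. Liver RNA of male mice was sequenced in 12 libraries, 4 in each of 3 groups. All 3 groups ate iodine-poor chow containing 0.15% PTU (propylthiouracil, an inhibitor of thyroid hormone synthesis) for 16 days. The hypothyroid WT group and the hypothyroid L-NCOR1ΔID group received vehicle, and the hyperthyroid WT group received 5 μg of the thyroid hormone T3 by intraperitoneal injection on each of the last 4 to 6 days. L-NCOR1ΔID mice carry, in the liver only, a form of the corepressor NCOR1 that lacks its thyroid hormone receptor interaction domains, on a mixed C57BL/6;129S background. The ages of the animals behind single libraries are not given in the sources used here. In the list of animals of the study, the hypothyroid and the hyperthyroid WT mice were older on average than the L-NCOR1ΔID mice. The strain background of the WT mice behind these libraries is not stated either. Genotype, age and strain background therefore cannot be told apart. Hyperthyroid mice had also been hypothyroid first, so the T3 comparison is of hormone given to animals on PTU.

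Cytochrome P450 oxidases of this family insert oxygen into fatty acids, steroids and drugs in the endoplasmic reticulum, with electrons passed on from P450 oxidoreductase. Many Cyp2c enzymes turn arachidonic acid into epoxides or hydroxylated products, which act as local lipid signals, and epoxide hydrolases then open the epoxides. In mouse liver, Cyp2c70 hydroxylates bile acids to muricholic acids, and several members differ in level between the sexes.

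Values are RPKM (uniquely aligned reads scaled to transcript length and library size) as deposited. Levels of different genes can be set side by side per length only where they share little sequence, since shared stretches give no reads. The order of the members by level and their shares of a sum carry this limit. Differences are on the log2(RPKM + 0.1) scale with their standard error (SE), from limma fitted to all genes that reached 0.1 RPKM in at least 4 libraries of a comparison. The limit for a call was an adjusted p of 0.01, to which the T3 comparisons added a size limit of 1 on the log2 scale. The relative depth of the libraries, read from the steps of the lowest values, was 0.681 to 0.833 of the first hypothyroid WT library in the hyperthyroid group, 0.931 to 1.219 in the hypothyroid WT group and 1.215 to 1.364 in the mutant group. Ncor1 was at 14.1 to 15.6 RPKM in hypothyroid WT, 14.3 to 18.5 in hyperthyroid WT and 12.1 to 13.9 in L-NCOR1ΔID, and a value for the whole gene does not check the deletion of part of it. The hepatocyte markers Alb, Apoa1, Ttr, Serpina1a and Tat were detected in every library. Their summed level was 36833 to 48379 RPKM in hypothyroid WT, 19131 to 27488 in hyperthyroid WT and 30491 to 34820 in L-NCOR1ΔID, mostly Alb. After T3, Alb and Ttr fell, with log2 differences of −1.16 and −1.56, and the other 3 were not called (Apoa1 0.12, Tat 0.29, Serpina1a 0.36). In whole liver, fewer cells of a type and less RNA per cell cannot be told apart. All 4 Kupffer cell markers rose with T3, and their summed level was 28.1 to 40.6 RPKM in hypothyroid WT, 104 to 176 in hyperthyroid WT and 34.7 to 103 in L-NCOR1ΔID. The part of these shifts in the results below was not tested.

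Of the 10 genes, 9 lie within 900.2 kb on mouse chromosome 19 (mm9, GENCODE M1), from Cyp2c29 (chr19:39361601-39405189, + strand) to Cyp2c70 (chr19:40227843-40261776, − strand). Between them stand Cyp2c38 (chr19:39464046-39537565, −), Cyp2c39 (chr19:39585352-39643019, +), Cyp2c68 (chr19:39763324-39815544, −), Cyp2c40 (chr19:39841561-39887304, −), Cyp2c37 (chr19:40066914-40086733, +), Cyp2c54 (chr19:40112431-40148301, −) and Cyp2c50 (chr19:40164186-40188440, +). Cyp2c23, named Cyp2c44 in that annotation, lies apart at chr19:44079512-44103737 on the − strand, 3817.7 kb beyond the end of the cluster. These positions are those of the protein-coding transcript with the longest coding sequence.

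The promoters of Cyp2c29 and Cyp2c39 are shown first because their genes moved in opposite directions after T3 while their coding sequences were 89.5% identical. Each sequence runs from 250 bases before to 50 bases after the start site, taken from RefSeq (GRCm38.p6), and capitals mark bases with no identical partner in the alignment of the pair.
Cyp2c29 (chr19:39286835-39287134, + strand): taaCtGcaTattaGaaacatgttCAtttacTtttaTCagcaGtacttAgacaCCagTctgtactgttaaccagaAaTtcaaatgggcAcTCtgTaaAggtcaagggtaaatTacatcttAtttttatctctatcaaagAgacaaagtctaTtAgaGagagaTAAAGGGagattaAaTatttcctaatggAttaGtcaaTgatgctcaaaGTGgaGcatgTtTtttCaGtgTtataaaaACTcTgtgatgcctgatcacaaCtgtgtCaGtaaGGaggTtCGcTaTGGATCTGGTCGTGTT
Cyp2c39 (chr19:39510572-39510871, + strand): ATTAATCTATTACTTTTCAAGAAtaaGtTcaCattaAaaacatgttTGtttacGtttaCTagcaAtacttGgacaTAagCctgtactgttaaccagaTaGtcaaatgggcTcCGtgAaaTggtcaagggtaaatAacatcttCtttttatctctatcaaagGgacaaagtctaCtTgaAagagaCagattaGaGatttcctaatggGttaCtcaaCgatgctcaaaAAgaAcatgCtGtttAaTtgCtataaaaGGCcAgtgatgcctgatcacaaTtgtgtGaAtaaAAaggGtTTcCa
Of the 300 bases, 223 were identical between these promoters. Many of the unmatched bases lie at the ends, where the start sites are offset. The stretch agggtaaat, for example, is in lower case in both.

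The promoters of Cyp2c37 and Cyp2c50 are shown because these genes share most of their sequence although Cyp2c37 was called after T3 and Cyp2c50 was not, and 264 of their 300 bases were identical.
Cyp2c37 (chr19:39992174-39992473, + strand): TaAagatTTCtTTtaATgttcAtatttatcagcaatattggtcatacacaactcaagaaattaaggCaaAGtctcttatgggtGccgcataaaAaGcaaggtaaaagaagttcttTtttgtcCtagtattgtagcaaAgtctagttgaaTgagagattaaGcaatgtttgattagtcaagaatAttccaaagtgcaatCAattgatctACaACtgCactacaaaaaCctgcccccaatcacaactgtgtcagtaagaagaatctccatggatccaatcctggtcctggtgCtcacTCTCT
Cyp2c50 (chr19:40089429-40089728, + strand): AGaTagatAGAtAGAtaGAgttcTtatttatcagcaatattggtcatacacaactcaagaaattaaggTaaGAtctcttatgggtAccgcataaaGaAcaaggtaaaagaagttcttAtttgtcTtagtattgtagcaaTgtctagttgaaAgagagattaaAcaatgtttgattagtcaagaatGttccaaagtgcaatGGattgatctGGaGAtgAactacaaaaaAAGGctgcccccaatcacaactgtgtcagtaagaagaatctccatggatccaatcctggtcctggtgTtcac
The Cyp2c70 promoter is shown because Cyp2c70 had the highest level of all 10 genes after T3, and here capitals mark the motif matches AGGTCA, CAAAGTCCA and TATAAA on either strand.
Cyp2c70 (chr19:40187237-40187536, − strand): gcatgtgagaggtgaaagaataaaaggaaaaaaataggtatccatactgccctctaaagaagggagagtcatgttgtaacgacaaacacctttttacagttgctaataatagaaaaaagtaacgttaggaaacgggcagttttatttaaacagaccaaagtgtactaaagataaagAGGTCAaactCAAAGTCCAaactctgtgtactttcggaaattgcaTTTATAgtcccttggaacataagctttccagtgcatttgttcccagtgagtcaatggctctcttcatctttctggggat
In it, AGGTCA begins 74 bases and CAAAGTCCA 64 bases before the start site, and the 2 matches do not overlap.

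The table of promoters held 9 entries for 8 of the genes, with a further one upstream for Cyp2c39, and Cyp2c23 and Cyp2c54 were not among them. AGGTCA, the core sequence bound by many nuclear receptors, was found on either strand in 3 of the 9 promoters (Cyp2c29, the upstream Cyp2c39 entry and Cyp2c70) and in 16.3% of all 32851 promoters of the same length. CAAAGTCCA, a sequence bound by HNF4A, was found in 3 of 9 (Cyp2c40, Cyp2c68 and Cyp2c70) and in 0.475% of all. TATAAA was found in 5 of 9 and in 13.6% of all. AGGTCA repeated in the same direction after a gap of 4 bases was found in 0 of 9 and in 0.015% of all. The promoters of these related genes resemble each other, so their matches do not count as independent. Those of Cyp2c40 and Cyp2c68, for example, were 94.4% identical over aligned bases. A match is a description of letters, and its absence covers only this window.

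In hypothyroid WT livers, Cyp2c29, a producer of arachidonate epoxides, was the most abundant member and the gene with the 27th highest mean in the whole table, at 1515 ± 93.1 RPKM (SD, n = 4). Cyp2c23, an arachidonate epoxygenase, followed at 315 ± 39.1 and Cyp2c70 at 288 ± 47.5. Cyp2c50 stood at 253 ± 30.2, and the libraries of these 3 genes overlapped. Cyp2c54, at 195 ± 18.1, lay below all of them. Lower levels were measured for Cyp2c37 (90.9 ± 41.2), Cyp2c39 (53.0 ± 26.6), Cyp2c68 (31.8 ± 0.978) and Cyp2c38 (14.7 ± 6.44). In that order each gene overlapped the next, except Cyp2c68 and Cyp2c38. Cyp2c40 was at 0.171 ± 0.093. Recovered from the steps of the values, this was only 6 to 17 reads per hypothyroid WT library.

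**Figure D1:**
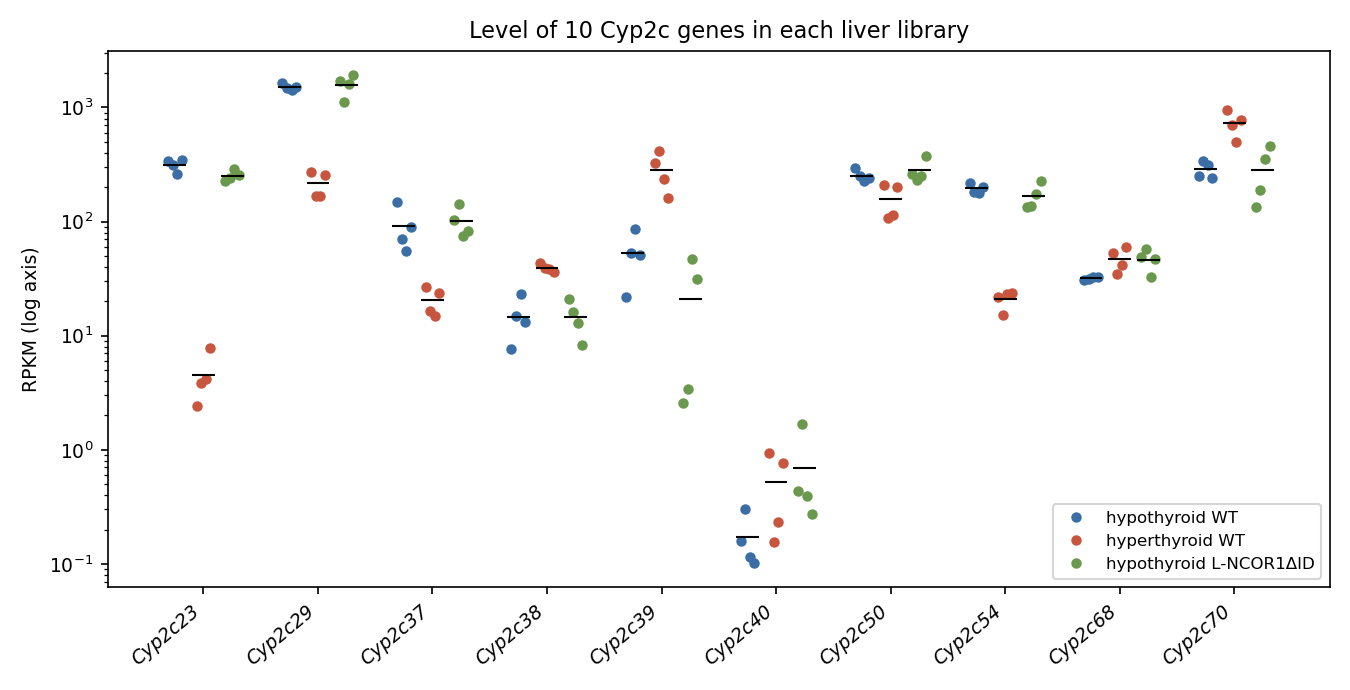
RPKM on a log axis for 10 Cyp2c genes, with 1 point per library (4 per group) and a bar at the group mean. After T3, Cyp2c23 fell from 315 to 4.57 RPKM on average, while the Cyp2c39 mean went from 53.0 to 285, and the mutant libraries of Cyp2c39 spread from 2.56 to 47.0.

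T3 split the family. In the fit of 13941 genes, 4 of the 10 genes (Cyp2c23, Cyp2c29, Cyp2c37 and Cyp2c54) fell and 3 (Cyp2c38, Cyp2c39 and Cyp2c70) rose, and the remaining 3 (Cyp2c40, Cyp2c50 and Cyp2c68) were not called. Of all genes tested, 11.8% were called, 8.28% higher and 3.47% lower, and since the members were picked with these values known, nothing is read from the comparison. The hyperthyroid and hypothyroid WT libraries did not overlap for 9 of the 10 genes, all but Cyp2c40, against 46.6% of all genes tested. The median log2 difference was −0.10 over the 10 genes and 0.23 over all genes. With the libraries scaled to equal medians of gene ratios, the median of all genes was 0.01 and 746 genes were called higher and 679 lower, in place of 1155 and 484. All 7 member calls stood under that scaling.

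Among the epoxygenases, Cyp2c23 had the largest difference. Its RPKM was 340, 315, 260 and 345 in hypothyroid WT and 2.42, 3.82, 4.14 and 7.88 in hyperthyroid WT. Every hyperthyroid library was far below every hypothyroid one, and the gene went from rank 163 to rank 7084 of the table by mean level. The log2 difference was −6.19 (SE 0.29), a fold of 73.2 lower.

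Cyp2c29 was at 1649, 1473, 1437 and 1500 RPKM in hypothyroid WT and at 274, 167, 168 and 258 in hyperthyroid WT. All hyperthyroid libraries were lower, with no overlap, and the log2 difference was −2.84 (SE 0.18). Even so the gene remained among the 3 highest members in mean level after T3.

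Cyp2c54 was at 219, 182, 180 and 200 RPKM in hypothyroid WT and at 21.6, 15.1, 23.4 and 23.7 in hyperthyroid WT, with a log2 difference of −3.23 (SE 0.14). Both groups were tight and well apart. Its close paralog Cyp2c37, which hydroxylates and epoxidizes arachidonate, was at 149, 70.0, 55.1 and 89.6 RPKM in hypothyroid WT and at 26.8, 16.5, 14.8 and 23.8 in hyperthyroid WT, a log2 difference of −2.09 (SE 0.30). The hypothyroid libraries of Cyp2c37 varied more, with the first one highest.

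Cyp2c50, the third gene of this trio of close paralogs, was at 296, 249, 225 and 243 RPKM in hypothyroid WT and at 209, 107, 115 and 201 in hyperthyroid WT. The groups did not overlap, but the log2 difference of −0.74 (SE 0.23) was under the size limit. In another listed transcript of Cyp2c50 the groups overlapped, with the first hyperthyroid library at 91.7 RPKM and the fourth hypothyroid WT library at 86.8. The Cyp2c54 to Cyp2c50 ratio was 0.733 to 0.822 in hypothyroid WT and 0.104 to 0.204 in hyperthyroid WT.

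Cyp2c39, known to oxidize retinoic acid, was at 21.6, 52.8, 86.8 and 51.0 RPKM in hypothyroid WT and at 326, 418, 237 and 160 in hyperthyroid WT. The hyperthyroid libraries were all higher, although both groups varied widely, and the log2 difference was 2.50 (SE 0.42). This call was lost with all 12 libraries in 1 fit, where the adjusted p was 0.0262 by limma. The ratio of Cyp2c39 to Cyp2c29 moved from 0.0131 to 0.0604 in hypothyroid WT libraries to 0.620 to 2.50 in hyperthyroid WT libraries.

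Cyp2c38, its closest paralog, was at 7.69, 14.9, 23.2 and 13.1 RPKM in hypothyroid WT and at 43.0, 39.1, 38.7 and 36.0 in hyperthyroid WT, a log2 difference of 1.51 (SE 0.27). The hyperthyroid libraries lay within a narrow range above all hypothyroid ones. With no filter on low values, Cyp2c38 and Cyp2c39 both missed the limit of the adjusted p, which was 0.0142 and 0.0112 by limma.

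Cyp2c70, the bile acid hydroxylase, was at 253, 341, 316 and 243 RPKM in hypothyroid WT and at 942, 707, 499 and 772 in hyperthyroid WT. All 4 hyperthyroid libraries were higher, and the log2 difference was 1.32 (SE 0.20), the smallest among the called genes. It became the most abundant member, at rank 62 of the table.

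Cyp2c68 was at 30.5, 31.4, 32.5 and 32.5 RPKM in hypothyroid WT and at 53.6, 34.4, 41.9 and 59.8 in hyperthyroid WT. The groups did not overlap, yet the log2 difference of 0.54 (SE 0.15) was under the limit. Cyp2c40, which makes hydroxylated arachidonate, was at 0.160, 0.305, 0.115 and 0.102 RPKM in hypothyroid WT and at 0.931, 0.155, 0.235 and 0.768 in hyperthyroid WT, with overlapping groups. Its log2 difference of 1.02 (SE 0.46) passed the size limit but not that of the adjusted p, at 7 to 42 reads per hyperthyroid library, and it was 0.35 with a pseudocount of 1. Nearest to the size limit, Cyp2c70 lay inside and Cyp2c40 and Cyp2c50 were outside the calls.

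**Figure D2:**
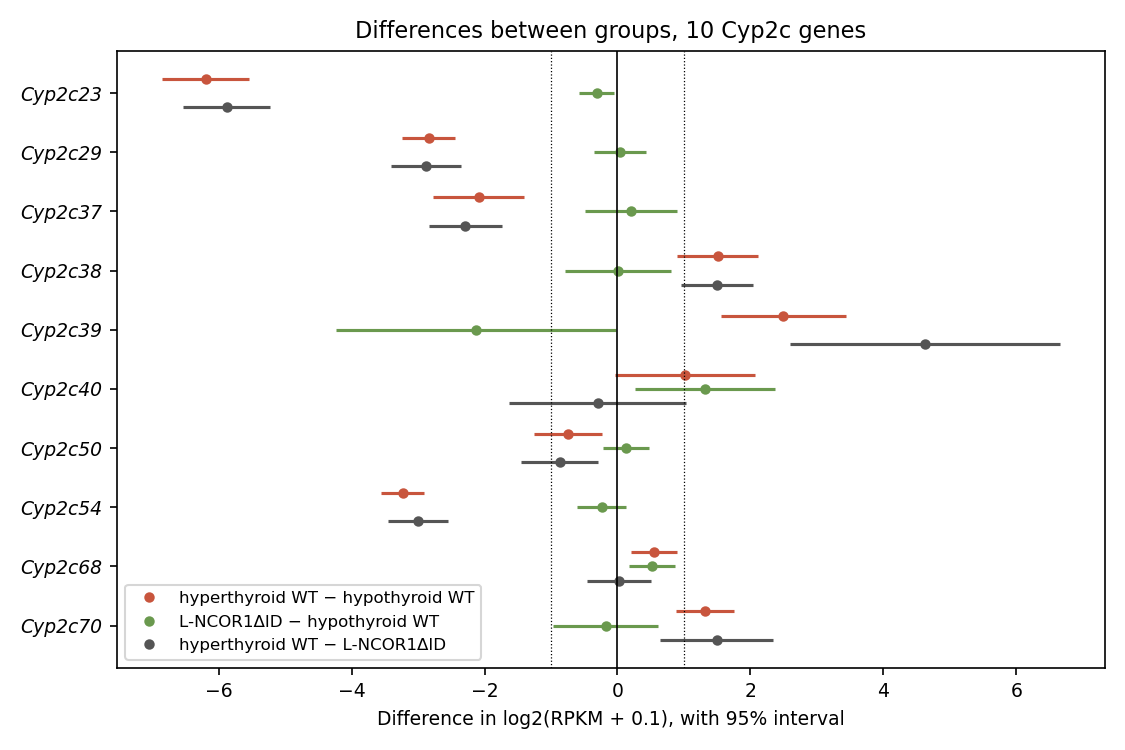
Difference in log2(RPKM + 0.1) between groups of 4 libraries for each gene, with the 95% interval from limma; dotted lines mark a difference of 1 in either direction. The T3 differences run from −6.19 (Cyp2c23) to 2.50 (Cyp2c39), and the mutant differences run from −2.13 (Cyp2c39) to 1.31 (Cyp2c40).

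Summed over the 10 genes, the level was 2757 ± 149 RPKM (SD, n = 4) in hypothyroid WT, 1523 ± 310 in hyperthyroid WT and 2755 ± 529 in L-NCOR1ΔID. The hyperthyroid libraries, at 1142 to 1899, lay below the hypothyroid WT libraries, at 2615 to 2966. Cyp2c29 made up 54.9% of the sum in hypothyroid WT and 14.2% in hyperthyroid WT on average. Cyp2c70 went from 10.5% to 47.6% and Cyp2c39 from 1.96% to 19.01%, while Cyp2c23 went from 11.4% to 0.314%.

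**Figure D3:**
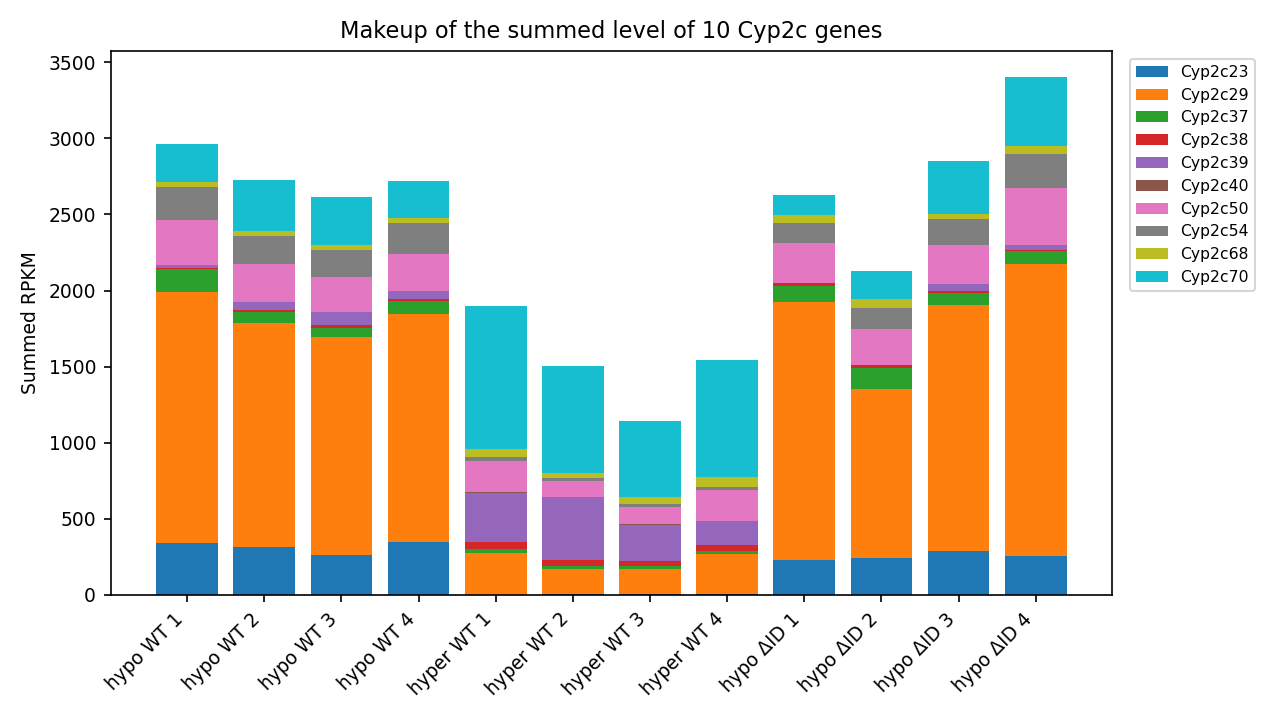
Summed RPKM of the 10 genes in each of the 12 libraries, with each gene as 1 part of the bar (hypo WT, hypothyroid WT; hyper WT, hyperthyroid WT; hypo ΔID, hypothyroid L-NCOR1ΔID). Cyp2c29 fills most of the hypothyroid bars, and Cyp2c70 is the largest part of all 4 hyperthyroid bars.

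In hypothyroid L-NCOR1ΔID livers, 0 of the 10 genes were called by limma, with 1.27% of 13790 genes called in either direction. With an adjusted p under 0.05 the count was also 0, with 601 of the 13790 genes called. An unadjusted p under 0.05 by limma was found for 4 of the 10. The share of all genes at that unadjusted limit is not given here, so nothing is read from the 4. Mutant and hypothyroid WT libraries overlapped for all 10 genes, against no overlap for 13.1% of all genes tested. The median log2 difference was 0.03 over the members and 0.03 over all genes. The 95% intervals were within ±1 for Cyp2c23, Cyp2c29, Cyp2c37, Cyp2c38, Cyp2c50, Cyp2c54, Cyp2c68 and Cyp2c70, and were wider for Cyp2c39 (−4.24 to −0.02) and Cyp2c40 (0.26 to 2.37). These WT libraries are the same as in the T3 comparison, so the values are set side by side without a measure of likeness.

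Cyp2c23 was at 227, 243, 289 and 254 RPKM in L-NCOR1ΔID, with a log2 difference from hypothyroid WT of −0.31 (SE 0.12). Cyp2c29 was at 1696, 1107, 1620 and 1921, with the second mutant library lowest, and Cyp2c54 at 135, 138, 174 and 229. Cyp2c37 was at 103, 142, 74.4 and 82.4, and Cyp2c50 at 260, 234, 253 and 374. All mutant libraries of Cyp2c23, Cyp2c29, Cyp2c37, Cyp2c50 and Cyp2c54 were above all hyperthyroid ones. Those of Cyp2c38, Cyp2c39 and Cyp2c70 were below all hyperthyroid ones, and for Cyp2c40 and Cyp2c68 the groups overlapped. The share of all genes without overlap between these groups is not given here, so nothing is read from this separation.

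Cyp2c39 divided the mutant libraries, at 2.56, 3.42, 47.0 and 31.5 RPKM. Libraries 1 and 2 were below every other library, and the log2 difference from hypothyroid WT of −2.13 had an SE of 0.93. It was −1.45 without the first mutant library and −2.84 without the third, and it was not called in any fit that left out a library. Hsd3b5, a male-biased liver gene picked after its values were seen, was also lowest there. It was at 9.87, 1.29, 68.0 and 107 RPKM in the 4 mutant libraries, against 63.7 to 108 in hypothyroid WT. Slco1a1, also male-biased, was lowest in the same libraries, while Elovl3, another, was highest in mutant library 1 (23.8, 2.15, 13.2 and 16.6 RPKM). After T3 the Hsd3b5 mean went down, from 85.1 to 30.9 RPKM, while Cyp2c39 rose. The part of Hsd3b5 in the Cyp2c39 spread was not tested. Cyp2c70 was at 134, 189, 351 and 458, again with libraries 1 and 2 lowest.

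Cyp2c40 was at 0.437, 1.68, 0.391 and 0.273 RPKM in L-NCOR1ΔID, with the second library highest (115 reads against 19 to 32), and its log2 difference of 1.31 had an SE of 0.47. With a pseudocount of 1 that difference was 0.469. Cyp2c38 was at 20.9, 16.2, 12.8 and 8.34 RPKM. Cyp2c68 was at 49.4, 57.5, 32.4 and 46.8 RPKM, a log2 difference of 0.52 (SE 0.15). Without the third mutant library, where Cyp2c68 was lowest, it was the 1 member called, with a log2 difference of 0.68 and an adjusted p of 0.00905 by limma.

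Set directly against each other, hyperthyroid WT and L-NCOR1ΔID differ in hormone and genotype together, and age and strain background cannot be told apart from genotype here either. Of the 10 genes, 4 (Cyp2c23, Cyp2c29, Cyp2c37 and Cyp2c54) were called lower in hyperthyroid WT, with 3.0% of 14017 genes called lower, and 2 (Cyp2c38 and Cyp2c39) higher, with 5.52% called higher. The log2 difference was −5.88 (SE 0.29) for Cyp2c23 and 4.63 (SE 0.90) for Cyp2c39. Cyp2c39 missed the limit when hyperthyroid library 1, 2 or 3 or mutant library 2 was left out, with log2 differences of 4.08 to 4.69 and adjusted p from 0.0102 to 0.0132 by limma. Over all fits that left out a library its log2 difference was 3.95 (without mutant library 1) to 5.33 (without mutant library 3). Its call was also lost with the replicate block (adjusted p = 0.0136 by limma) and with no filter on low values (0.0262), where Cyp2c38 missed the limit too (0.012). For Cyp2c70 the log2 difference of 1.49 (SE 0.37) was not called, and it was called without the fourth mutant library (1.78, adjusted p = 0.00472 by limma) and with all 12 libraries in 1 fit (0.00342). Cyp2c68 did not differ between these groups beyond its spread (0.03, 95% interval −0.45 to 0.50).

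The regions that carry acetylated H3K9 and H3K27, marks of active promoters and enhancers, were taken from the deposited list of 37200 regions, found in hypothyroid and hyperthyroid WT liver and merged over both marks. The list gives positions, and levels in these regions were not used here. Such a region covered the start site of 9 of the 10 genes, the exception being Cyp2c40, whose nearest region began 4562 bases away. Among 11813 tested genes with a position, 86.5% had a region at the start site, and among 3863 with a mean of at least 10 RPKM it was 97.0%. The regions at the start sites were 3446 to 13008 bases long, the longest at Cyp2c39 and the shortest at Cyp2c68. Genes that fell and genes that rose both had one. The promoter sequences, found again letter for letter on mm9, gave the same answer for the 8 genes, and the upstream Cyp2c39 entry, at chr19:39421586-39421885 in mm9, also lay in an acetylated region.

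**Figure D4:**
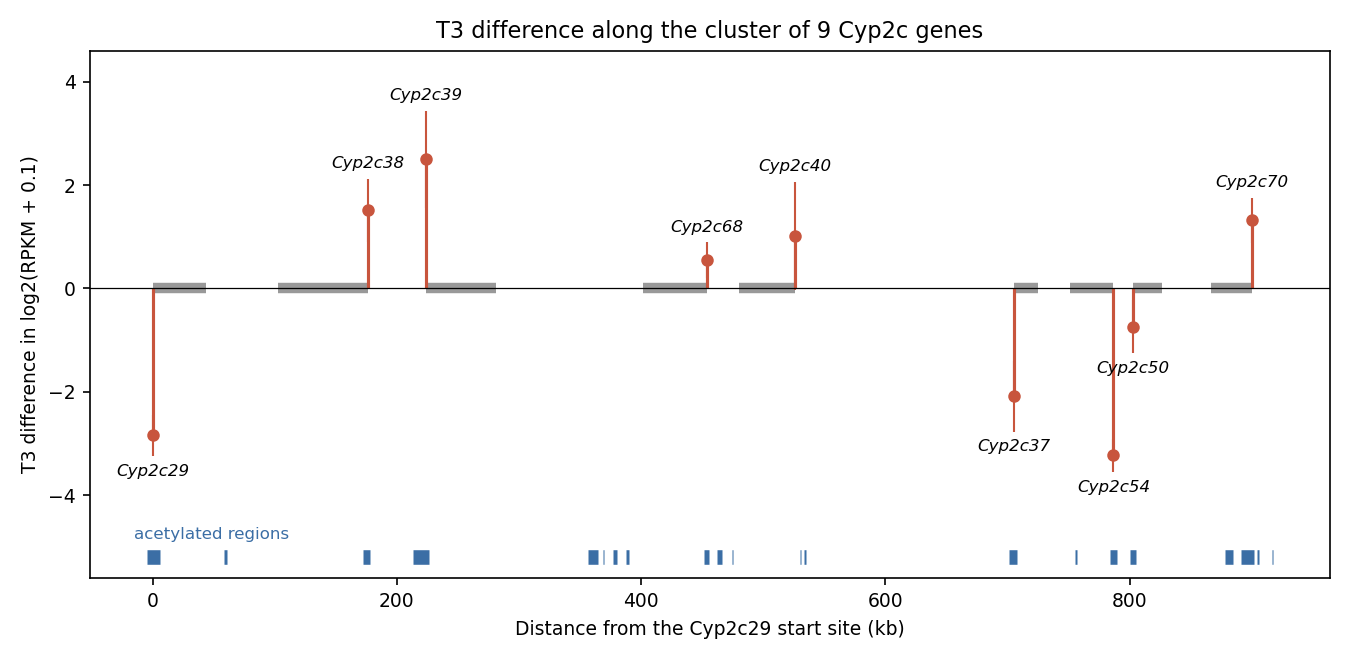
Difference in log2(RPKM + 0.1) after T3, with its 95% interval, at the start site of each of the 9 clustered genes, by distance in kb from the start site of Cyp2c29; grey bars are gene bodies and blue bars acetylated regions. Cyp2c37 (−2.09), Cyp2c54 (−3.23) and Cyp2c50 (−0.74) form a run of differences below 0, and Cyp2c29 (−2.84) lies at the other end of the cluster, next to Cyp2c38 (1.51).

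Coding sequences were 98.1% identical between Cyp2c40 and Cyp2c68, 96.1% between Cyp2c37 and Cyp2c50, 95.2% between Cyp2c50 and Cyp2c54, and 94.2% between Cyp2c38 and Cyp2c39. Cyp2c70 was at most 69.8% identical to another member. Only uniquely aligned reads were counted, so a stretch shared between genes gives no reads to either. Of all 50-base windows of the transcript, 72.0% were shared with another gene for Cyp2c40, 43.3% for Cyp2c68, 30.7% for Cyp2c50, 29.2% for Cyp2c37 and 25.0% for Cyp2c54. The share was 11.4% for Cyp2c39, 7.45% for Cyp2c38, 0.53% for Cyp2c29 and 0.0% for Cyp2c23 and Cyp2c70. Levels of Cyp2c40, Cyp2c68, Cyp2c37, Cyp2c50 and Cyp2c54 are therefore uncertain as levels. They can be understated, since RPKM is scaled to transcript length, and by how much was not tested.

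**Figure D5:**
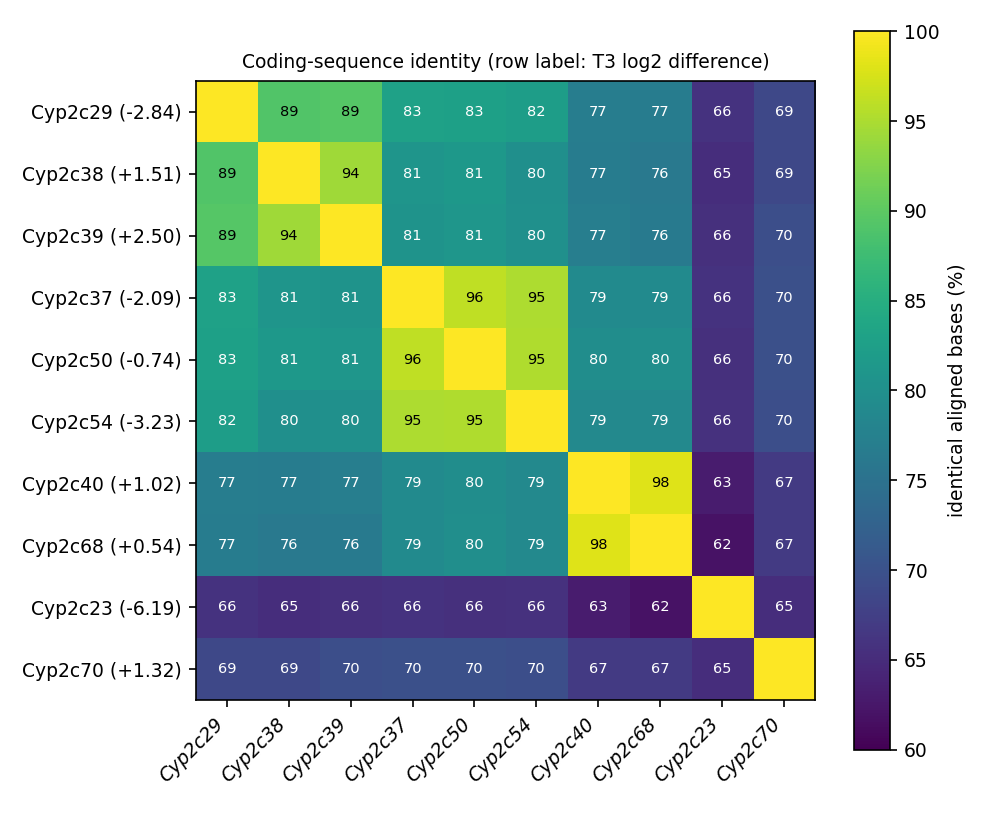
Identical aligned bases (%) between the coding sequences of each pair of genes, with the log2 difference after T3 beside each row name. The block of Cyp2c29, Cyp2c38 and Cyp2c39 holds differences of −2.84, 1.51 and 2.50, while Cyp2c37, Cyp2c50 and Cyp2c54 were all below 0.

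Within groups, some members moved together from library to library. After removing the group means, the correlation of log2 levels over the 12 libraries was 0.89 between Cyp2c29 and Cyp2c50, 0.81 between Cyp2c39 and Cyp2c70, 0.72 between Cyp2c40 and Cyp2c68, and −0.65 between Cyp2c37 and Cyp2c39. These pairs were picked for their size, and the lowest correlation of all pairs was −0.66, between Cyp2c38 and Cyp2c54. Other pairs were near no correlation, such as Cyp2c23 and Cyp2c70 (−0.01). Mutant libraries 1 and 2 were the lowest of their group for both Cyp2c39 and Cyp2c70. The libraries share their depth and scaling, and Cyp2c40 and Cyp2c68 share sequence.

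Among 10654 genes with a mean of at least 1 RPKM, the genes outside the members whose log2 levels were most like those of a member over the 12 libraries, by Pearson's r, were Ddah1, Uox and Hsd17b6 for Cyp2c23 (0.997 to 0.993). They were Slc39a4, Nipsnap1 and Mgst1 for Cyp2c29 (0.991 to 0.986), Nox4, Abcc3 and Cyb5a for Cyp2c54 (0.994 to 0.988) and Agxt2, Adh1 and Gnmt for Cyp2c37 (0.984 to 0.979). Fam3a, Slc22a7 and Mup10 were most like Cyp2c39 (0.958 to 0.956), and E030018B13Rik, Ndfip2 and Spr most like Cyp2c38 (0.961 to 0.948). For Cyp2c70 they were AI987944, Abhd1 and Apof (0.968 to 0.945), for Cyp2c50 Nudt16, Acadsb and Tmem220 (0.944 to 0.928), for Cyp2c68 Fam126a and Snx5 (0.892 and 0.891) and for Cyp2c40 Ppif, C2 and Endog (0.892 to 0.887). These correlations run over all 3 groups and so hold differences between groups as well as within them, and the libraries share their scaling.

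Of the 6 other Cyp2c genes, 4 were tested after T3 and 1 was called, as lower. Each of the 4 had a lower fitted level after T3, and their median log2 difference was −1.788, against 0.233 over all genes. Cyp2c67, in the same cluster, was at 114 to 168 RPKM in hypothyroid WT, 16.4 to 38.6 in hyperthyroid WT and 69.6 to 154 in L-NCOR1ΔID, a log2 difference after T3 of −2.44 (SE 0.24). In the mutant, Cyp2c55 rose. It was at 4.70, 0.941, 0.691 and 2.35 RPKM in hypothyroid WT, at 0.301, 0.261, 0.473 and 1.18 in hyperthyroid WT and at 27.1, 14.6, 15.96 and 18.6 in L-NCOR1ΔID, with a log2 difference in the mutant of 3.40 (SE 0.51). Every mutant library was above every other library, a pattern that none of the 10 members showed. The other Cyp2c genes tested, Cyp2c53-ps and Cyp2c69, were not called in any of the 3 comparisons.

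Of the other genes of the arachidonate epoxide route, 8 of 11 were tested after T3, of which 4 fell and 1 rose, and the median log2 difference was −0.95. Ephx1, an epoxide hydrolase of the endoplasmic reticulum, went from a mean of 345 to 115 RPKM (log2 difference −1.63, SE 0.22), and Cyp2j5, another epoxygenase, from 190 to 68.3 (−1.53, SE 0.20). Cyp2j9 fell by 1.21 on the log2 scale. Pla2g4a, which releases arachidonate from membranes, rose from 0.188 to 0.788 RPKM (1.65, SE 0.19). In the mutant, 0 of 9 tested were called by limma.

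Of 7 electron donors and heme genes, all tested, 1 rose and 1 fell after T3. Hmox1, which degrades heme, went from 6.08 to 25.8 RPKM (log2 difference 2.01, SE 0.25), and Cyb5a, an electron donor to P450 enzymes, from 1171 to 454 (−1.36, SE 0.10). Por, the P450 oxidoreductase, was not called, with 145 to 220 RPKM in hyperthyroid WT and 193 to 573 in L-NCOR1ΔID. In the mutant 0 of the 7 were called by limma.

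Of 17 transcription factors and corepressors linked to these genes, 2 rose and 2 fell after T3. Nr1i3, the constitutive androstane receptor that activates Cyp2c genes on drug exposure, went from 173 to 44.4 RPKM (log2 difference −1.97, SE 0.15), and to 81.7 in L-NCOR1ΔID (−1.07, SE 0.11). Cebpb went from 12.8 to 69.2 RPKM with T3 and to 32.2 in the mutant (1.32, SE 0.15). These were the 2 of the 17 called in the mutant.

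Sex-dependent liver genes also moved in these male mice. Of 8 male-biased genes, 4 fell and 2 rose after T3. Cyp4a12a went from 207 to 11.4 RPKM (log2 difference −4.33, SE 0.32) and Elovl3 from 10.7 to 91.9 (3.37, SE 0.43). Of 10 female-biased genes tested, 5 rose and 2 fell, with Cyp3a44 at 0.115 RPKM in hypothyroid WT and 52.5 in hyperthyroid WT and Acot3 at 13.3 and 0.136. In the mutant, 1 of 9 female-biased genes rose and 0 of 8 male-biased genes were called by limma. The median log2 difference after T3 was −1.87 for the male-biased genes and 2.23 for the female-biased genes, against 0.233 over all genes. In the mutant these medians were −1.078 and 0.581, against 0.033 over all genes. Some of the mutant differences had wide errors, such as Hsd3b5 (−2.21, SE 1.18) and Slco1a1 (−1.68, SE 0.98).

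Of the pericentral hepatocyte markers, 3 of 5 fell after T3 and 2 rose. The log2 difference was −3.64 for Oat, −2.99 for Cyp1a2 and −2.44 for Cyp2e1, and 1.27 for Axin2 and 1.06 for Glul. The summed level of these markers was 6088 to 7742 RPKM in hypothyroid WT, 1266 to 1597 in hyperthyroid WT and 4517 to 5748 in L-NCOR1ΔID. Cyp2e1 made up most of that sum. The 4 periportal markers, of which 0 were called by limma after T3, summed to 697 to 1009, 736 to 1198 and 812 to 1627 RPKM. Cyp2f2 had the highest mean of them in each group and a log2 difference after T3 of 0.80. The other periportal differences were below 0 (Sds −0.565, Gls2 −0.51 and Hal −0.71), and the median of the list was −0.54. Of the markers of other cells, 1 of 4 endothelial, 0 of 4 stellate, 1 of 4 cholangiocyte and 1 of 3 leukocyte genes rose after T3. Their part in the Cyp2c differences was not tested.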

How the data were processed

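Liver RNA was measured by poly(A) RNA-seq in 12 libraries, 4 per group. The authors aligned reads to mm9 with STAR, kept uniquely aligned reads and counted them with HOMER, and deposited RPKM values per transcript (31370 rows, of which 1 without a gene name was left out). Each library had runs from 2 instrument models. The merged list of acetylated regions was used as positions. Tool versions are not given in the sources used here. The members and lists were chosen with earlier results of these data known, so no p-value is read as support for them.

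The first row of each gene was used. limma 3.58.1 (R 4.3.3; trended variance, p-values adjusted by Benjamini-Hochberg) was fitted to log2(RPKM + 0.1), which understates changes of low genes, over the 2 groups compared. RPKM are not counts, so no count test was run. The self-test on simulated data recovered 94.5% to 97.0% of 200 changed genes per comparison, each on its own 13873 to 14137 genes. The changes put into the simulation were all larger than the T3 differences of Cyp2c38 and Cyp2c70. They were put only into genes above a floor of mean level, which Cyp2c40 does not reach. These shares hold only for changes of such sizes in genes of such levels. Recovery of smaller differences, or of changes in lower genes, was not tested, so the shares do not show that genes without a call were unchanged. The exact number of reads per library is not given by RPKM, and only relative depth was read from its steps. No column of another sample was present (0 unused). The study calls the libraries of a group biological replicates.

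Named genes were the 10 members, at most 4 genes of each list (those called with the largest difference, then those of the highest mean; Por, Glul, Hsd3b5, Slco1a1 and Cux2 were added after their values were seen) and the 3 genes most like each member; some genes that this rule names are not reported here. Identity was taken from global alignments (Biopython 1.88). Alternatives were the pseudocount (1 or 0.01), the filter, 1 fit of all 12 libraries, a replicate block, no variance trend, another scaling, the highest transcript, each library left out, an adjusted p under 0.05 and wider windows at the start site.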

Additional observations from a re-analysis of the deposited data

Results flagged for a closer look

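Among the 30 sets of 4 libraries (10 genes in 3 groups), 1 held a library far from the other 3: Cyp2c40 was at 1.681 RPKM in the second L-NCOR1ΔID library and at 0.273 to 0.437 in the others. Chance flags about 1 in 20 such sets. The same library had the highest level of Cyp2c37 (142 RPKM) and of Cyp2c68 (57.5 RPKM) within the mutant group, and the highest level of Por (573 RPKM).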

How the results depend on the processing

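After T3, 7 of the 10 genes were called, and the count was 5 with no filter on low values, 6 with all 12 libraries in 1 fit and 7 in each fit that left out a library. In L-NCOR1ΔID the count was 0 under every other setting and 0 to 1 when a library was left out. For T3 against L-NCOR1ΔID it was 6, with 4 to 7 over all settings and 5 to 7 when a library was left out. An acetylated region was at the start site of 9 genes, within 2 kb of 9 and within 10 kb of 10. The causes of these shifts were not tested. With a mean of at least 1 RPKM required, Cyp2c40 was not tested.

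Samples share only a replicate number: the deviations of same-numbered libraries correlated at −0.207 to 0.267, over 0.1 for 2 of 12 pairs. With the replicate block, 7 members were called after T3, 0 in the mutant and 5 in T3 against L-NCOR1ΔID, and the calls among all genes in the mutant went from 175 to 45.

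Signs that turned were all of differences that were not called. With the libraries scaled to equal medians of gene ratios, the log2 difference in the mutant was −0.003 for Cyp2c29 and −0.029 for Cyp2c38, and for T3 against L-NCOR1ΔID it was −0.171 for Cyp2c68. When a library was left out, the mutant difference ranged from −0.062 to 0.203 for Cyp2c29, −0.005 to 0.473 for Cyp2c37, −0.261 to 0.267 for Cyp2c38, −0.016 to 0.211 for Cyp2c50 and −0.464 to 0.128 for Cyp2c70. T3 against L-NCOR1ΔID ranged from −0.623 to 0.188 for Cyp2c40 and −0.138 to 0.168 for Cyp2c68. RPKM carry no library totals, so the precision of low values such as those of Cyp2c40 rests on reads recovered from the steps.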

Other observations

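The mutant livers held a wide spread among themselves for a few genes that are not Cyp2c genes. Slco1a1, a male-biased transporter, was at 26.4, 3.72, 92.4 and 148 RPKM in the 4 L-NCOR1ΔID libraries and at 74.7 to 144 in hypothyroid WT. Cux2, a female-biased transcription factor, was at 0.178, 2.32, 0.440 and 0.096 RPKM in the same libraries. Marco, a Kupffer cell gene, was at 3.35, 29.1, 4.62 and 0.647 RPKM in them. These genes were chosen after their values were seen.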
